A study of Homo sapiens with 8 samples.

Results

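The effect of the mature miRNA miR-490-3p on gene expression was measured in HCT116, an established human colorectal cancer cell line, on 1 of the 8 arrays of the series. The Cy5 channel of this array held RNA of HCT116 cells given miR-490-3p with a lipid transfection reagent, and the Cy3 channel held RNA of HCT116 mock cells, which the labels describe as without transfection. Values below are log2 ratios of Cy5 over Cy3, so that -1 is 2 times less and 1 is 2 times more RNA after transfection. A second HCT116 array carried the partner strand miR-490-5p against mock, and 6 arrays carried other small RNAs in the renal cancer lines A498 and 786-O (miR-139-5p and miR-139-3p) and in the breast cancer line MDA-MB-231 (si-GINS1_1 and si-GINS1_2), each against mock of its line. No array was replicated and no dyes were swapped, so there is no test and only sizes are given. No HCT116 array carried a control duplex, so a response to miR-490-3p and a response to any transfected small RNA cannot be told apart on this array. The labels do not say whether both HCT116 arrays used the same mock extract, so their values are set side by side only. Whether mock cells received the reagent is not stated in the labels either.

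A miRNA guides the Argonaute silencing complex to messenger RNAs whose 3′ untranslated region pairs with its seed, bases 2 to 8 of the miRNA, and the paired message is repressed and often degraded. A transfected mature miRNA is therefore followed by lower levels of transcripts that hold the complement of the seed, beside indirect changes in genes downstream. The study searched for genes that the 3p arm controls in colorectal cancer cells, and the array described here is the one made for that arm.

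Both mature sequences are shown because the seed decides which transcripts can pair. They are from RefSeq on GRCh38.p14, 5′ to 3′, with the seed in capitals.
hsa-miR-490-3p (chr7:136903242-136903263, plus strand): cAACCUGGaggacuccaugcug
hsa-miR-490-5p (chr7:136903205-136903224, plus strand): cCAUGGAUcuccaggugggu
The arms lie in the same hairpin and have different seeds. Of the 2545 mature human miRNAs in the RefSeq table, 0 others had the seed of miR-490-3p. A transcript pairs with the miR-490-3p seed through the 7 bases CCAGGTT, and an A after them, facing base 1 of the miRNA, makes the 8-base match CCAGGTTA. The shorter forms are the 6 bases CAGGTT and, with the A, CAGGTTA.

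Of 42072 genes on the array, 21361 had a signal well above background in mock, after transfection or in both, and these are the genes measured here. The median log2 ratio of these genes was 0.0074 with an SD of 0.29. The Cy3 signals of both HCT116 mock channels differed with an SD of 0.081 log2 units, and 98.6% of genes lay within 0.2 of each other. Repeated spots of a probe on the array had a pooled SD of 0.053 over 281 probes. For 4 genes the mock channels differed by 1 or more. Of 13 markers of colorectal epithelium 8 were well above background in mock, among them EPCAM, CDH1, KRT18, KRT19 and the intestinal transcription factor CDX2, while VIL1, LGR5, ASCL2, GPA33 and CDH17 were not. EPCAM, KRT8, KRT18, KRT19 and CDX1 were also above background in mock on all 6 arrays of other lines, and CDX2 on 0 of them. Of the leukocyte markers CD3E was not above background, and PTPRC and CD14 had log2 signals of 6.07 and 5.89, near the lowest signal of any probe well above background in Cy3 (5.81). KRT20, counted among the 8 colorectal markers, was as dim (5.87). Of 4 fibroblast markers COL1A1 was above background, and of 7 renal ones PAX2, PAX8 and LRP2 were.

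With miR-490-3p 142 genes lay at or below -1 (0.665% of genes measured) and 88 lay at or above 1 (0.412%). The split depended on the scaling: under median centring in place of loess it was 70 lower and 253 higher, and the scanner log ratio gave 843 lower and 868 higher. A gene whose probe takes up the dyes unequally keeps its ratio on every array, and a gene whose ratio rests on 1 odd mock signal shows a gap between the mock channels. After the median of the 6 arrays of other lines had been subtracted, and with both HCT116 mock channels within 0.5, 111 genes were still at or below -1 (0.52%) and 68 still at or above 1 (0.318%). In bulk RNA of this kind, less RNA per cell and fewer cells with the transcript cannot be told apart. At the smaller size of 0.5 the counts were 816 genes lower (3.82%) and 867 higher (4.06%). When genes were ranked by brightness, the 5341 dimmest held 0 of the 111 and 68 genes. The 5340 brightest held 75 of the lower and 38 of the higher ones. The offset added to all signals in background correction pulls the ratios of dim genes toward 0. Log2 ratios had an SD of 0.09 among the dimmest genes and of 0.40 among the brightest. The counts by brightness therefore cannot show whether dim genes changed less.

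**Figure D1:**
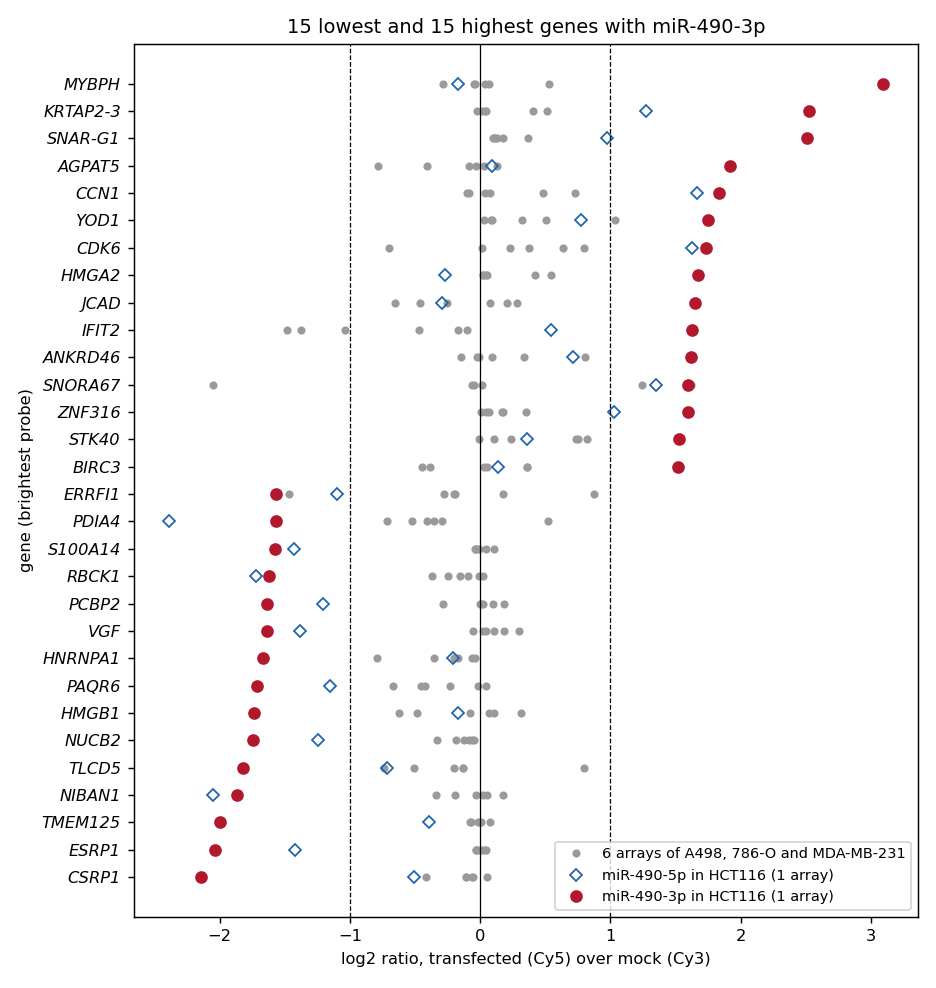
Log2 ratio (x axis) of the 15 lowest and 15 highest genes on the miR-490-3p array (red) among those that kept their size after the dye and mock checks, with the same probe on the miR-490-5p array (blue diamonds) and on the 6 arrays of other lines (grey). Red points run from -2.14 for CSRP1 to 3.09 for MYBPH, and dashed lines mark -1 and 1.

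Among genes that passed the dye and mock checks, the lowest was CSRP1, a LIM domain protein of the actin cytoskeleton. C1QTNF5 (-2.55) and ACTL8 (-2.21) lay lower but did not pass them. The CSRP1 probe at chr1:201453051-201453110 (hg19) had a normalized log2 signal of 8.10 in mock and 5.95 with miR-490-3p. Its log2 ratio was -2.14, or 4.41-fold lower in normalized signal. The same probe lay at -0.51 with miR-490-5p and at -0.42 to 0.05 on the 6 arrays of other lines. A second CSRP1 probe lay at -0.18 and was not well above background after transfection. ESRP1, an epithelial regulator of splicing, went from 8.39 in mock to 6.35, a log2 ratio of -2.04. TMEM125, a membrane protein, went from 9.91 to 7.92 (-2.0), and NIBAN1, a protein of the stress response, from 8.50 to 6.64 (-1.87). These 4 genes differed in their level with the partner strand, which was -1.42 for ESRP1, -0.39 for TMEM125 and -2.05 for NIBAN1. TLCD5, a TLC domain membrane protein, lay at -1.82, with a second probe at -0.46, and NUCB2, a calcium-binding protein of the secretory pathway, at -1.74.

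HMGB1, a DNA-bending chromatin protein that also acts as an alarm signal outside cells, had a log2 ratio of -1.73, with a signal of 11.8 in mock and 10.06 with miR-490-3p. HNRNPA1, which binds nuclear RNA and guides splicing, went from 13.3 to 11.7 (-1.66). On the miR-490-5p array the same probes lay at -0.17 and -0.21, within the values of the 6 arrays of other lines. Both further HNRNPA1 probes were lower as well, at -1.20 and -0.41. HNRNPA1 has near-identical gene copies, so its probes may also measure those. The remaining genes of the lowest 15 were PAQR6, a membrane receptor, at -1.72, the neuropeptide precursor VGF at -1.64, the RNA-binding protein PCBP2 at -1.63 with a second probe at -0.40, RBCK1, a subunit of the linear ubiquitin ligase, at -1.62 with further probes at -1.34 and -1.04, S100A14 of the S100 family at -1.58, PDIA4, a disulfide isomerase of the endoplasmic reticulum, at -1.57, and ERRFI1, an inhibitor of the EGF receptor, at -1.57. Each of these 7 lay below -1 with miR-490-5p too, between -2.39 for PDIA4 and -1.10 for ERRFI1.

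Of the genes above mock, MYBPH, a myosin-binding protein, stood highest. Its probe at chr1:203136960-203137019 (hg19) had a signal of 6.13 in mock and 9.22 with miR-490-3p. The log2 ratio was 3.09, or 8.52-fold in normalized signal, against -0.17 with miR-490-5p. KRTAP2-3, a keratin-associated protein, was at 2.52 and at 1.27 with miR-490-5p. SNAR-G1, of the small non-coding SNAR RNAs that have near-identical copies, was at 2.51. AGPAT5, an acyltransferase of phospholipid synthesis, was at 1.92 and at 0.09 with the partner strand. CCN1, a matricellular protein, was at 1.83, the deubiquitinase YOD1 at 1.75 and the cell cycle kinase CDK6 at 1.73. CCN1 and CDK6 were nearly as high with miR-490-5p, at 1.66 and 1.62. HMGA2, a chromatin protein of the high mobility group, was at 1.67 by its brightest probe, but its further probes were at 0.00 and -0.35. JCAD, a junction protein, was at 1.65 with a second probe at 0.77, and IFIT2, an interferon-stimulated gene, at 1.63 with a second probe at 0.54. The remaining ones were ANKRD46 at 1.62, the small nucleolar RNA SNORA67 at 1.6, the zinc finger gene ZNF316 at 1.59 with further probes at 0.23 and 0.13, the kinase-like gene STK40 at 1.53 and BIRC3, an inhibitor of apoptosis, at 1.52.

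Other probes of a called gene mostly lay on the same side of 0 but closer to it. Of the 111 lower genes 35 had another probe well above background, whose median was below 0 in 30 and at or below -0.5 in 14, with a median over genes of -0.43. Of the 68 higher genes 24 had one, above 0 in 20 and at or above 0.5 in 6, with a median of 0.31. Whether the probes of a gene measured different transcripts was not tested.

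Probes that hold the complement of the miR-490-3p seed lay lower on this array than on the others. The array's probes are 60 bases long and for the most part read in the sense of the transcript (AATAAA, the usual polyadenylation signal, was in 2188 probes measured and its reverse complement TTTATT in 1061), so the search covered only these 60 bases of a transcript and not its whole 3′ untranslated region. Of 28356 probes well above background, 113 held CCAGGTT. They named 109 genes, and 4 of them shared a run of 20 or more bases with another of the 113. Their median log2 ratio was -0.11, with quartiles at -0.41 and 0.036, against 0.0055 over all probes. Of the 113 probes 18 lay at or below -0.5, or 15.9%, beside 3.37% of all probes, and 1 lay at or above 0.5. The same probes had a median of -0.012 on the miR-490-5p array and of -0.0085 to 0.015 on the 6 arrays of other lines, and their brightness (median log2 signal 6.65) was near that of all probes (6.70). By length of match the median was -0.072 over 14 probes with 8 bases, -0.11 over 99 with 7 bases only, -0.056 over 47 with CAGGTTA and -0.0088 over 235 with 6 bases only. The 8-base group was small and did not lie below the 7-base group. The 130 probes with ATCCATG, the match of the partner strand, had a median of 0.012 on this array and of -0.06 on the miR-490-5p array.

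**Figure D2:**
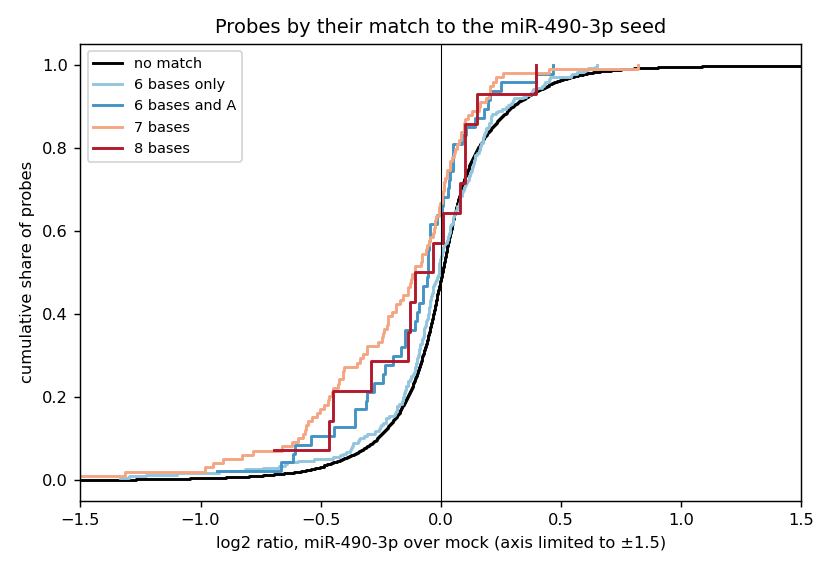
Cumulative share of probes (y axis) against log2 ratio with miR-490-3p (x axis) for probes without a match (black) and with 6, 7 or 8 bases of match to the seed. The curve of 7-base matches, with a median of -0.11, lies left of the curve without a match, with a median of 0.0061.

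The low median was found at the seed and not along the rest of the miRNA. All 16 complements of 7 neighbouring bases of miR-490-3p were searched in the probes. The window that starts at base 2 had a median of -0.11, and the other 15 windows had medians between -0.031 and 0.013. The window at base 1, which shares 6 bases with the seed, had -0.031, the lowest of those 15. The seed match had already been seen as low in earlier work on these data, so this profile describes the array and is not independent evidence.

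**Figure D3:**
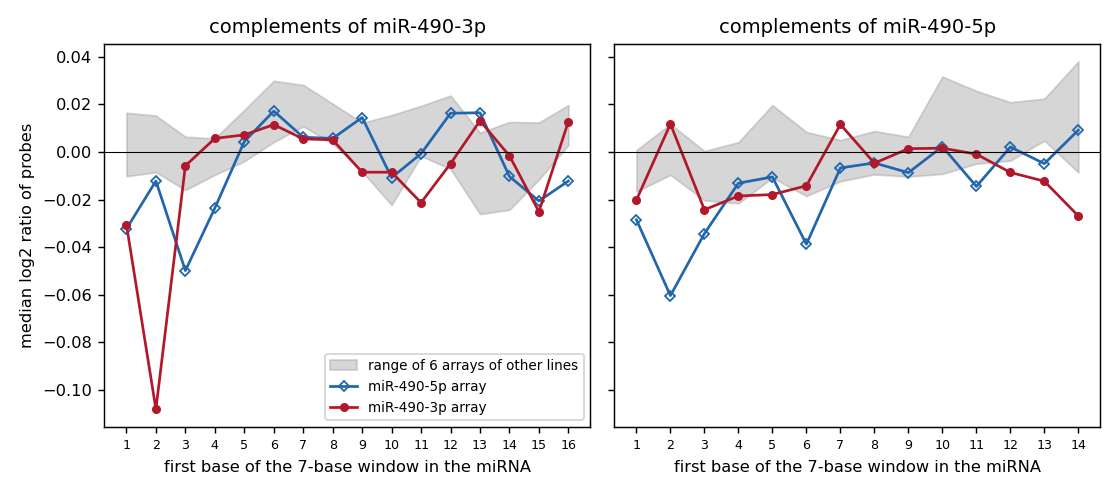
Median log2 ratio of probes that hold the 7-base complement of a miRNA window (y axis), by the window's first base (x axis), for miR-490-3p (left) and miR-490-5p (right), on the miR-490-3p array (red), on the miR-490-5p array (blue) and as the range over 6 arrays of other lines (grey). The seed window of miR-490-3p, at base 2, stands at -0.11 on the miR-490-3p array, and that of miR-490-5p at -0.06 on its own array.

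Of the genes whose brightest probe holds the match, the 6 lowest and IL1RAP are shown with 30 bases around it, as the probe reads on hg19, with the match in capitals. TLCD5 is of the 15 lowest genes, FDXR and HYOU1 are of the study's candidates, SPTLC1 and IL1RAP, a gene of the Toll and interleukin-1 receptor list, have the 8-base match, and C6orf89 and TMEM147 were chosen after their values were seen.
TLCD5 (chr11:120201261-120201290, plus strand): agccatgggaaCCAGGTTggaaatatgact
C6orf89 (chr6:36891248-36891277, plus strand): agagccgaaaaCCAGGTTgaaaggggaaaa
FDXR (chr17:72858650-72858679, minus strand): ctggactgtggagggtcaCCAGGTTgggaa
TMEM147 (chr19:36038382-36038411, plus strand): cctgcctcactCCAGGTTttagtgaagtaa
HYOU1 (chr11:118915824-118915853, minus strand): agcctcagttaCCAGGTTtggtttctgagt
SPTLC1 (chr9:94793723-94793752, minus strand): tctttagcaaaCCAGGTTAtgtggtgtaaa
IL1RAP (chr3:190368998-190369027, plus strand): acgttccatgcCCAGGTTAacaaagaactg
The log2 ratio was -1.82 for TLCD5, -1.31 for C6orf89, a membrane protein gene, -0.98 for FDXR, a mitochondrial reductase, -0.95 for TMEM147, a membrane protein of the endoplasmic reticulum, and -0.91 for HYOU1, a chaperone of the endoplasmic reticulum. SPTLC1, a subunit of serine palmitoyltransferase, lay at -0.69, against 0.39 with miR-490-5p and 0.04 to 0.67 on the 6 arrays of other lines, but a second SPTLC1 probe without the match was at 0.28. IL1RAP, the accessory chain of the interleukin-1 receptor, lay at -0.29. HYOU1 was as low with miR-490-5p (-0.99), TLCD5 and FDXR lay at -0.71 and -0.68 there, and C6orf89 and TMEM147 at -0.29 and -0.32. Of the other 8-base matches, RUNX2, CRYBG3, TMPRSS4-AS1 and the transcripts ENST00000430550 and ENST00000540982 lay between -0.45 and -0.03, with IPO4, lnc-FOXD4L6-3, SDR39U1 and C6orf147 between 0.01 and 0.10, SNORA3A at 0.15 and ENST00000437852 at 0.40. Of the 142 genes at or below -1, 137 had no match of 6 or more bases in their probe (96.5%), beside 98.6% of all genes measured.

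The study's candidate genes were chosen by the study on this array, so their level here is a description. Of the 38 candidates 36 were well above background, all but SLC5A1 and SOWAHB. The 36 had a median log2 ratio of -0.75, with 9 at or below -1, beside 0.665% of all genes, and 0 at or above 1. These counts depend on the scaling and on the probe. By the scanner log ratio 26 of the 36 lay at or below -1, beside 3.95% of all genes, with a median of -1.12. The study lists all 38 at or below -1 on this array. For RNASET2 (-0.01), MCTS1 (-0.06), VWA2 (0.09), TGFA (0.07) and MPZL3 (0.72) the scanner log ratio of the brightest probe differed from the study's value. It also differed for C6orf132 (-0.30), MYO1D (-0.38), TMEM164 (-0.11), MAGT1 (-0.87) and SLC44A1 (-0.91), and slightly for STT3A (-1.68). Which probe the study used is not stated. The 9 genes of the main processing included HMGB1 and HNRNPA1. The others were HKDC1, a hexokinase domain protein, STT3A and STT3B, the catalytic subunits of the oligosaccharyltransferase, and VDAC1, the main channel of the outer mitochondrial membrane. The fucosyltransferase FUT1, the metallothionein MT1F and RAB11FIP1, an effector of RAB11 in vesicle recycling, completed them. On the miR-490-5p array the candidates had a median of -0.11 and on the 6 arrays of other lines of -0.07 to 0.015.

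**Figure D4:**
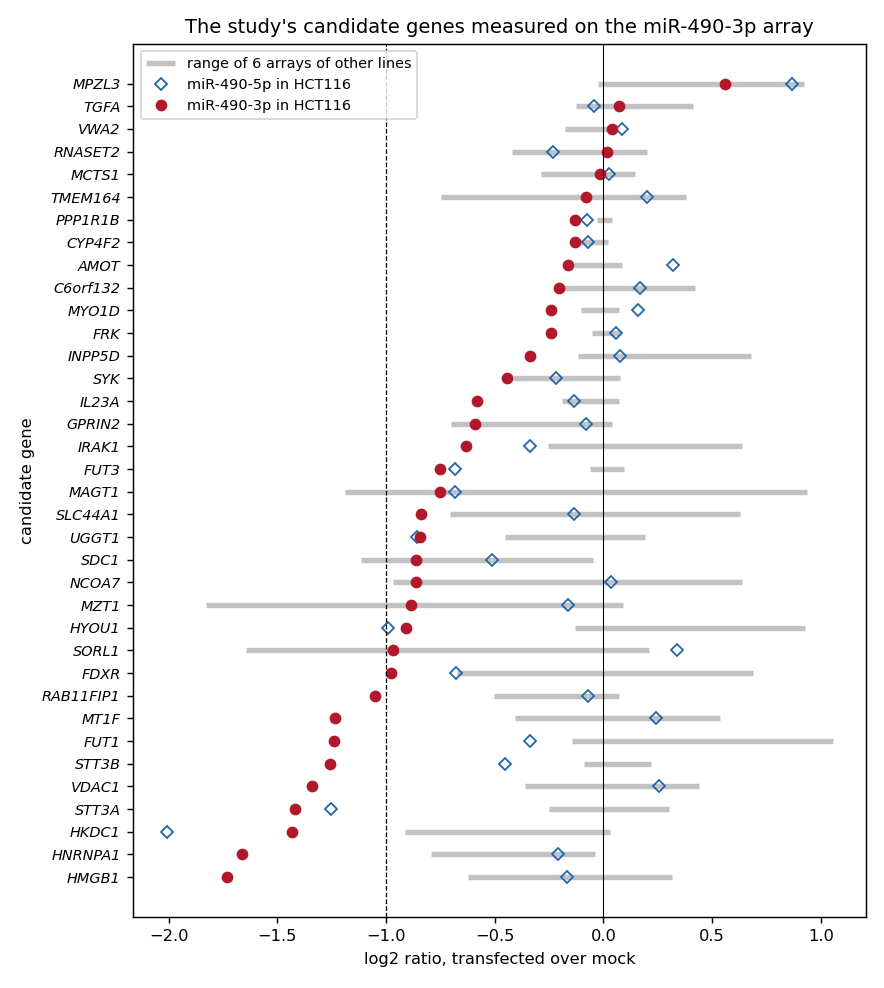
Log2 ratio (x axis) of the 36 candidate genes of the study that were well above background, on the miR-490-3p array (red), on the miR-490-5p array (blue diamonds) and as the range over the 6 arrays of other lines (grey bars). The red points run from -1.73 for HMGB1 to 0.56 for MPZL3, and 9 lie left of the dashed line at -1.

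VDAC1 had a signal of 11.7 in mock and 10.4 with miR-490-3p, a log2 ratio of -1.34, and its second probe lay at -0.61. With miR-490-5p the first probe lay at 0.26. FUT1, which makes the H antigen, went from 8.68 to 7.44 (-1.24, and -0.34 with miR-490-5p). STT3B lay at -1.26 (-0.45 with miR-490-5p), MT1F at -1.24 (0.24) and RAB11FIP1 at -1.05 (-0.07, second probe with miR-490-3p -0.36). RAB11FIP1 was at -0.97 after the dye check, and the other 8 kept their size. For HKDC1 and STT3A both arms gave low values: HKDC1 lay at -1.43 here and at -2.01 with the partner strand, and STT3A at -1.42 and -1.25. A second HKDC1 probe lay at -0.44. IRAK1, a kinase below the interleukin-1 and Toll-like receptors, went from 7.30 in mock to 6.66, a log2 ratio of -0.63, with a second probe at -0.32. With miR-490-5p the same IRAK1 probes lay at -0.34 and -0.21. By the scanner log ratio IRAK1 lay at -1.06, which is the value the study lists. GPRIN2, a neurite outgrowth protein, lay at -0.59, with -0.40 left after the dye check and -2.31 by the scanner log ratio.

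Of the other candidates, between -1 and -0.5 lay FDXR (-0.98), the sorting receptor SORL1 (-0.97), HYOU1 (-0.91), MZT1 of the spindle pole (-0.88), NCOA7 (-0.86), the proteoglycan SDC1 (-0.86), UGGT1, which checks glycoprotein folding (-0.85), the choline transporter SLC44A1 (-0.84), MAGT1 of the oligosaccharyltransferase (-0.75), the fucosyltransferase FUT3 (-0.75) and the cytokine subunit IL23A (-0.58). With miR-490-5p SORL1 was at 0.34 and NCOA7 at 0.03, while UGGT1 (-0.86), MAGT1 (-0.68), FUT3 (-0.68), FDXR (-0.68) and SDC1 (-0.51) were low there too. The second probe of SLC44A1 lay at -0.16 with miR-490-3p, and further MAGT1 probes lay at -0.69, -0.32 and -0.30. Closer to 0 lay the kinases SYK (-0.44) and FRK (-0.24), INPP5D (-0.34), MYO1D (-0.24), C6orf132 (-0.20), AMOT (-0.17), TMEM164 (-0.08), MCTS1 (-0.02), RNASET2 (0.02), VWA2 (0.04) and TGFA (0.07). Of these SYK, FRK, INPP5D and AMOT were dim in mock (6.65, 6.15, 6.35 and 6.05), where the offset pulls ratios toward 0. By the scanner log ratio SYK, FRK, INPP5D and AMOT lay at -1.07, -1.21, -1.20 and -1.04, the values the study lists. CYP4F2 and PPP1R1B were not well above background after transfection, so their values are bounds, at least 1.1-fold and at least 1.09-fold lower. By the scanner log ratio CYP4F2 lay at -2.60 and PPP1R1B at -2.46. MPZL3 stood at 0.56, with a second probe at -0.10. Of the targets of miR-490-3p that the study cites, VDAC1 is described above, TNKS2 lay at -0.17 and RAB14 at 0.06. TNKS2 and RAB14 were dim in mock (6.23 and 6.32), so their small ratios cannot show whether they changed.

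Families around these candidates did not move as 1 block. The counts below stand beside 0.665% of all genes at or below -1. Of the 7 VDAC channels and hexokinases measured, VDAC1 and HKDC1 lay at or below -1, HK2 at -0.17, VDAC2 at 0.05, HK1 at 0.25 and VDAC3 at 0.31, with a list median of 0.05. Of 10 fucosyltransferases FUT1 lay at or below -1 and FUT4 stood highest at 0.74, with a median of -0.08 and FUT8, which adds core fucose, at -0.71. Of 10 HMG chromatin proteins HMGB1 lay at -1.73, HMGB2 at -0.65 and HMGN2 at -0.52, while HMGA2 stood at 1.67. The HMG median was -0.28 and changed sign under median centring (0.07). Of 16 HNRNP proteins only HNRNPA1 was at or below -1. HNRNPA0 lay at -0.50 with a second probe at -0.02, HNRNPK at 0.55 with a second probe at -0.06, and HNRNPA3 at 0.84, though the further HNRNPA3 probes lay between -0.35 and 0.19. The HNRNP median was 0.01, with -0.02 without background correction and 0.36 under median centring.

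**Figure D5:**
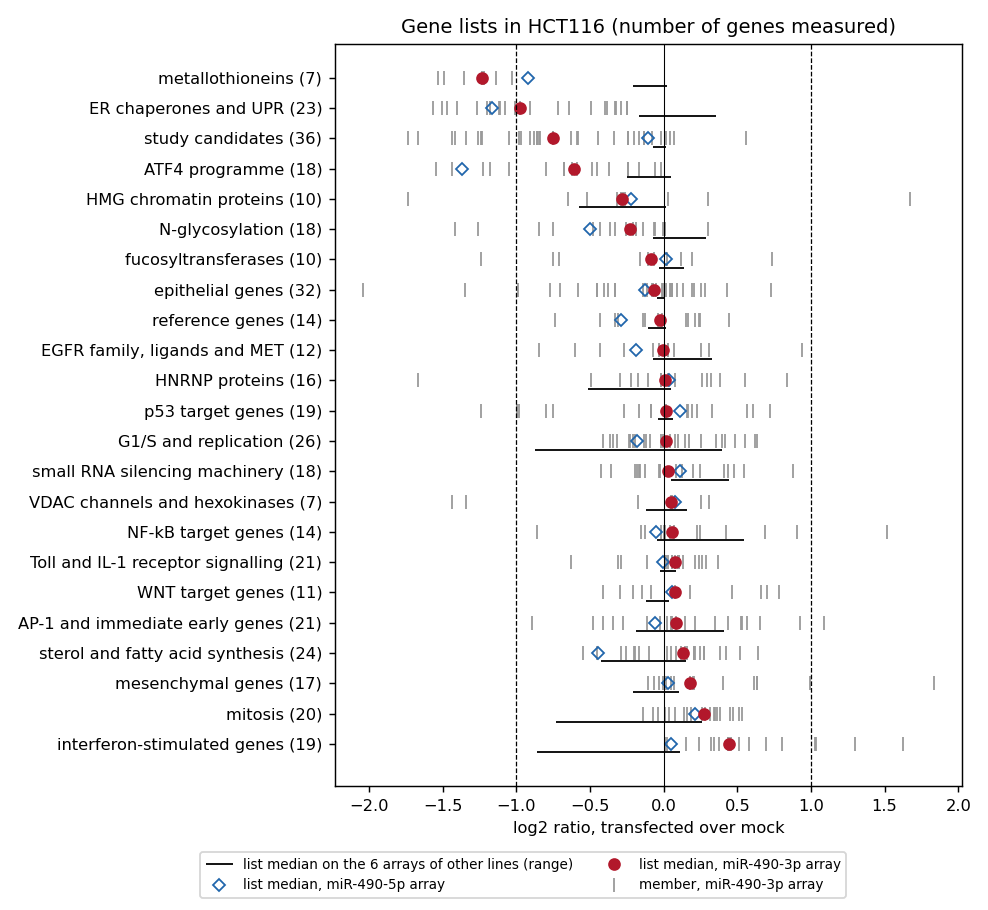
Log2 ratio (x axis) of the members of each gene list on the miR-490-3p array (grey ticks) and the list medians on the miR-490-3p array (red), on the miR-490-5p array (blue diamonds) and as the range over 6 arrays of other lines (black bars), with the number of genes measured in brackets. Metallothioneins have the lowest median (-1.24) and interferon-stimulated genes the highest (0.44); under median centring the medians of N-glycosylation, HMG, epithelial, reference and EGFR family genes lie above 0.

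Of all lists, genes of the endoplasmic reticulum (ER) had the most members at or below -1 in the main processing. All 23 ER chaperones and genes of the unfolded protein response (UPR), which handle the folding of secreted proteins, lay below 0, beside 48.1% of all genes, and 11 lay at or below -1, beside 0.665%, with a median of -0.97 beside 0.0074 for all genes. HSP90B1 (-0.96) and PDIA3 (-0.85) were above -1 after the dye check, which left 9. PDIA4 lay at -1.57, SEL1L of ER-associated degradation at -1.5, the secreted factor MANF at -1.47 and HSPA5, the main ER chaperone, at -1.41. SEL1L rested on its brightest probe, and its further probes lay at -0.57 and -0.12. Closest to 0 were DNAJB9 (-0.25), EDEM1 (-0.25), the sensor kinase EIF2AK3 (-0.29) and the sensor ERN1 (-0.32). The list had a median of -1.17 with miR-490-5p and of -0.17 to 0.36 on the 6 arrays of other lines, so it was low in both HCT116 arrays.

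The ATF4 programme is the transcriptional response to amino acid shortage and ER stress. Its 18 measured genes also all lay below 0, beside 48.1% of all genes. Their median of -0.61 stood beside -1.37 with miR-490-5p, against -0.25 to 0.05 on the 6 arrays of other lines. Of the 18 genes 5 lay at or below -1, beside 0.665% of all genes. One of the 5, PHGDH, was at -0.97 after the dye check. The pseudokinase TRIB3 went from 12.8 in mock to 11.2 (-1.54), the transcription factor DDIT3 from 8.54 to 7.10 (-1.44), DDIT4 lay at -1.23 and ASNS, which makes asparagine, at -1.18. ASNS lay at -2.37 with miR-490-5p. STC2 (-0.02), ATF3 (-0.06), SESN2 (-0.17) and PSAT1 (-0.24) were closest to mock. Of 18 N-glycosylation genes 2, STT3A and STT3B, were at or below -1 (0.665% of all genes) and 15 below 0 (48.1% of all genes). UGGT1 and MAGT1 followed at -0.85 and -0.75, and ALG2 stood highest at 0.30. The median of -0.23 changed sign under median centring (0.02).

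Metallothioneins, small proteins that bind zinc and copper, were lower as a family. All 7 measured genes lay at or below -1, beside 0.665% of all genes, with a median of -1.24. They were MT1X (-1.53), MT1M (-1.49), MT1B (-1.35), MT1F (-1.24), MT1E (-1.22), MT2A (-1.13) and MT1A (-1.03). MT1G and MT1H were not well above background. After the dye check MT1A was at -0.98, and the further MT1E probes lay at -1.28 and -0.47. With miR-490-5p the median was -0.92 and MT1F lay at 0.24. On the 6 arrays of other lines the median lay between -0.21 and 0.02. Under median centring MT1A, MT1B, MT1E and MT2A lay above -1, between -0.93 and -0.59. The genes of this family are so alike that a probe may measure several of them, so the 7 values are not 7 separate measurements.

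Interferon-stimulated genes, the antiviral genes that cells switch on when they sense foreign RNA, stood above mock with miR-490-3p. Of 26 genes 19 were well above background. Of these 0 lay below 0, beside 48.1% of all genes, and 4 were at or above 1, beside 0.412%. IFIT2 stood at 1.63, IFIT1 at 1.30 (7.11 in mock and 8.41 with miR-490-3p), ISG15 at 1.03 and OASL at 1.03, and MX1 and BST2 lay lowest, at 0.01 and 0.02. The median was 0.44, beside 0.05 with miR-490-5p. On the 6 arrays of other lines it lay between -0.86 and 0.11, which makes the values after subtraction of those arrays larger (median 0.65). The share of a general response to transfected RNA in this list cannot be told apart from a response to miR-490-3p.

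The Toll and interleukin-1 receptor pathway, in which IRAK1 works, had a median near mock, at 0.08. Of 21 genes 0 lay at or below -1, beside 0.665% of all genes, and 0 at or above 1, beside 0.412%. With shares this small, a count of 0 does not set the list apart. Of the 21 genes 17 lay above 0, beside 11095 of the 21361 genes measured. Several members were dim in mock, among them IL1R1 (6.08), TLR5 (6.06), TIRAP (6.04) and IRAK4 (6.04). The offset pulls such ratios toward 0. After IRAK1 (-0.63) came PELI2 (-0.31), IL1RAP (-0.29) and TAB1 (-0.11), and at the other end the adaptor MYD88 (0.37), PELI1 (0.29), TRAF6 (0.26) and TOLLIP (0.24). Of 14 NF-kB target genes BIRC3 (1.52) was at or above 1, beside 0.412% of all genes. RELB stood at 0.91, the chemokines CXCL1 at 0.69 and CXCL2 at 0.42, and TNFAIP2 lay lowest at -0.86, with a list median of 0.06. The CXCL2 value was -0.11 after the dye check.

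Epithelial genes spread to both sides. Of 32 genes ESRP1 (-2.04) and the tight junction protein CLDN3 (-1.35) lay at or below -1, beside 0.665% of all genes. Next came the transcription factor ELF3 (-0.99) and CLDN4 (-0.77, second probe -0.05). With miR-490-5p ESRP1 lay at -1.42, CLDN3 at -1.16, CLDN4 at -0.59 and ELF3 at -0.45. With miR-490-3p TJP1 stood at 0.73, ESRP2 at 0.43, DSP at 0.28 and KRT19 at 0.25. The median of -0.06 became 0.21 under median centring. Of 17 mesenchymal genes CCN1 (1.83) was at or above 1, beside 0.412% of all genes. ZEB1, a repressor of epithelial genes, stood just under 1 at 0.99, with a second probe at 0.38 and a value of 0.08 with miR-490-5p. CCN2 was at 0.63, TGFBI was at least 1.49-fold higher, since it was not well above background in mock, CAV1 lay lowest at -0.10, and the median was 0.18, beside 0.03 with the partner strand.

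Cell cycle genes did not reach the size threshold. Of 26 genes of G1/S and replication and of 20 mitosis genes 0 lay at or below -1, beside 0.665% of all genes. At or above 1 stood 0 of them, beside 0.412%. With shares this small, a count of 0 does not set these lists apart. In the first list CCND1 lay lowest at -0.41 and CCNE2 and CCND3 highest at 0.63 and 0.62, with a median of 0.02 that was -0.01 without background correction and 0.34 under median centring. Mitosis genes had a median of 0.27, with 17 of 20 above 0, beside 11095 of the 21361 genes measured. With miR-490-5p the mitosis median was 0.21. CENPF (0.53, second probe 0.17) and AURKA (0.51) stood highest and FOXM1 lay lowest at -0.14. Of 19 p53 target genes GDF15 lay at -1.24, DDB2 at -0.99 (second probe -0.16), FDXR at -0.98 and TP53I3 at -0.80, whereas TIGAR stood at 0.72 and TP53INP1 at 0.61, with a median of 0.01. CDKN1A, the cell cycle inhibitor of this list, lay at 0.19 with miR-490-3p.

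The values next to the size threshold show how close calls were. Just inside -1 lay MBOAT1, OR51B5, CREB3L4, lnc-SHISA4-1 and CKMT1A, between -1.01 and -1.0, and just outside it MAGEA6, ADAM8, ARGLU1, DDB2 and BCOR, between -1.0 and -0.99. Just inside 1 stood RNF125, BCL2L12, BAK1, KPNA2 and DDAH1, between 1.0 and 1.01, and just outside it SYN2, ZEB1, lnc-EGLN1-1, ARL6IP5 and ATP5MJ, between 0.99 and 1.0. MBOAT1, CREB3L4, lnc-SHISA4-1, RNF125, BCL2L12, BAK1 and KPNA2 were inside the threshold only before the dye check. These 20 genes differ from each threshold by less than the SD of 0.081 between the mock channels.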

How the data were processed

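RNA of transfected and mock cells was labelled with Cy5 and Cy3 and hybridised to Agilent 2-colour arrays. Per the file headers, the authors scanned all 8 arrays with Agilent Feature Extraction 11.5.1.1 and deposited, per spot, the mean signal intensity and the median local background intensity of each channel on a linear scale, not normalized, together with a log10 ratio that the scanning program had already corrected for background and dye. The value table of the whole series, also deposited by the authors, repeats these log10 ratios (largest difference 0). Each array held 62976 spots, of which 2075 were controls, for 58201 probes. On the miR-490-3p array the median intensity was 21.53 in both channels over a background of 14 (Cy3) and 16 (Cy5), 189 spots with an outlier flag were left out and 0 were saturated. The single array limits the precision of every value.

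Intensities were background-corrected with normexp and an offset of 50, which pulls dim probes toward 0, and log2 ratios were normalized by loess without control spots in limma 3.58.1 under R 4.3.3, with files read by the data.table package, version 1.17.8. Genes, matches and lists were handled in Python 3.11.15 (pandas 2.3.3, numpy 2.4.6) and drawn with matplotlib 3.10.9. Spots of a probe were averaged, and a gene was measured if its brightest probe over the 8 arrays was well above background, by the scanner's flag, in at least 1 channel. Of 33080 probes with a RefSeq accession 31104 were named through RefSeq, and other probes kept the annotation's name. Positions of probes are on hg19, and no exon or untranslated region annotation was used. Levels per channel are loess-normalized signals scaled between the arrays by their mean log2 signal (Aquantile). Mock channels of both HCT116 arrays were compared after quantile normalization of the pair.

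Genes were named by a fixed rule: the 15 lowest and 15 highest past 1 that kept this size after subtraction of the median of the 6 arrays of other lines and whose mock channels differed by less than 0.5, near-identical copies counted as 1, every candidate of the study and cited target, up to 4 members at each end of the other lists, the 10 lowest 8-base matches and 5 genes on each side of each threshold. Single values of a few list members and markers that this rule or the lists would name are not reported here. The members, the 24 gene lists and the measures were chosen with earlier results of these data known. The subtraction also takes out real changes in the other lines. The steps were tested on simulated data. The alternatives were an offset of 10, no background correction, the scanner log ratio, median centring, both channels well above background, the dye subtraction, the median over the probes of a gene and no filter on dim probes.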

Additional observations from a re-analysis of the deposited data

How the results depend on the processing

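The counts of genes past the size threshold depended on the processing, while the genes of the checked set mostly kept their side. At or below -1 lay 142 genes as reported, 283 with an offset of 10, 255 without background correction, 843 by the scanner log ratio and 70 under median centring. At or above 1 stood 88 as reported, and 179, 154, 868 and 253 under the same settings. With both channels well above background, after the dye subtraction, with the median over the probes of a gene and without a filter on dim probes both counts stayed within 1.5 times. Of the 111 lower and 68 higher genes of the checked set, 109 and 68 were still past the threshold by the scanner log ratio, 63 and 68 under median centring, and 89 and 47 by the median over probes. The median of probes with a seed match was -0.27 by the scanner log ratio, against -0.11 as reported, and ranged from -0.18 to -0.034 under the other settings. The median of the study's candidates was -0.75 as reported, -0.98 with an offset of 10, -0.95 without background correction, -1.12 by the scanner log ratio, -0.55 under median centring, -0.61 after the dye subtraction and -0.59 with the median over probes. Median centring moved 20 of 23 other list medians by more than the mock spread (SD 0.081), and it raised bright genes most: the median of 14 reference genes went from -0.03 to 0.36, while that of all genes went from 0.0074 to 0.078. The dye and mock checks together left 179 genes. No paired analysis was possible because each group had 1 array. With 1 array per group no sample could be left out. Of the genes measured, 1868 were well above background in only 1 channel, so ratios of dim genes are the least certain.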

Other observations

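Lists of other pathways had medians near mock on the miR-490-3p array. Of 24 genes of sterol and fatty acid synthesis 0 lay at or below -1, beside 0.665% of all genes, or at or above 1, beside 0.412%. Their median was 0.13, with ACLY (0.52) and DHCR7 (0.42) among the highest and SREBF1 (-0.55) and SCD (-0.45) lowest, beside a median of -0.44 with miR-490-5p, where DHCR7 lay at -1.25. Of 21 AP-1 and immediate early genes JUN stood at 1.09, KLF6 at 0.92 (further probes at 0.03 and 0.10) and MYC at 0.56, and DUSP6, a phosphatase that limits ERK signalling, lay lowest at -0.89, with a median of 0.09. MYC lay at -0.77 with miR-490-5p. Of 11 WNT target genes BMP4 (0.78), RNF43 (0.70) and AXIN2 (0.66) stood highest, with a median of 0.08. Of 12 genes of the EGFR family, ligands and MET, the ligand NRG1 stood at 0.94 and AREG lay at -0.84, and ERBB2 lay at -0.60 with a second probe at -0.16. Of 18 genes of small RNA silencing DICER1 stood highest at 0.88 and PAN2 lay lowest at -0.43, with AGO2 at -0.02. Of 14 reference genes ACTB stood highest at 0.44 and GUSB lay lowest at -0.74. GAPDH lay at -0.31 with miR-490-3p, and at 0.15 under median centring.

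Of the genes past the threshold that did not pass the dye and mock checks, several stand out by size or by the gap between the mock channels. C1QTNF5 had the lowest ratio of all, -2.55, with a bound of at least 5.46-fold lower because the Cy5 signal was not well above background, but the same probe lay between -2.58 and -2.04 on the 6 arrays of other lines and at -2.52 with miR-490-5p. For LOC102723366 (-1.76) and CPXM1 (-1.48) the mock signal on the miR-490-3p array was higher than on the miR-490-5p array by 1.76 and 1.42 log2 units, and both lay between -0.06 and 0.06 on the 6 arrays of other lines. The copies SNAR-A3, SNAR-H, SNAR-D and SNAR-B2 stood between 2.16 and 2.23, with mock channels 0.51 to 0.54 apart. Of the 111 lower genes 95 were protein-coding by RefSeq, 1 was a long non-coding RNA and 13 were not matched by name. Of the 68 higher genes 58 were protein-coding, 2 long non-coding, 3 of the RefSeq class snRNA, 1 a small nucleolar RNA and 4 not matched. Measured were 13480 protein-coding genes, 1396 long non-coding RNAs, 210 small nucleolar RNAs, 17 of the class snRNA and 5801 not matched. These values were looked up after the data had been seen.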
